A study of Arabidopsis thaliana with 64 samples.

Results

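The response of Arabidopsis thaliana roots to the cytokinin kinetin was measured on medium that held no nitrogen. The comparison took every array whose treatment code gives neither nitrate nor ammonium, which is 16 of the 64 arrays in the series. Kinetin at 500 nM was present on 8 of them and absent on the other 8. Both arms held the same 4 combinations of the other hormones, which were no other hormone, indole-3-acetic acid (IAA, the main natural auxin) at 500 nM, abscisic acid (ABA, a stress hormone) at 1 µM, and IAA with ABA. Each of the 8 groups had 2 arrays.

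The series addressed how nitrogen and hormone signals combine in roots, and its 32 groups hold every combination of nitrate, ammonium, IAA, kinetin and ABA. Seedlings were grown in liquid culture with 3 mM sucrose and 0.5 mM ammonium succinate, all groups alike, and then spent 24 h on fresh medium without nitrogen. The roots were harvested after 4 h of treatment, so roots of the 16 arrays had been without a nitrogen source for the day before and during the treatment. The labels name mock controls of potassium chloride and DMSO, and give no mutant, transgene or ecotype. Nothing in the labels says whether replicates 1 and 2 of a group were grown separately, so the p-values reflect the spread between duplicate arrays, which may be technical. Whole roots were used, so fewer cells of a type and less RNA per cell cannot be told apart.

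Cytokinins are perceived by membrane receptor kinases, which pass a phosphate through shuttle proteins to type-B response regulators in the nucleus. The type-B regulators are transcription factors, and among the genes they switch on are the type-A response regulators, which dampen the signal in return. In roots, cytokinin is known for restraining growth and lateral root formation and for carrying information about nitrogen supply between root and shoot, and several nitrate transporter genes are known to be lowered by it.

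Each level below is log2(intensity + 1), with the authors' scaled intensity, and each change is a log2 difference ± SE between the 8 arrays with kinetin and the 8 without, from limma fitted to all 64 arrays. A probe set passed at a Benjamini-Hochberg adjusted p under 0.05 over 22746 probe sets. Kinetin changed 102 probe sets (0.448%). Increases numbered 74 (0.325%) and decreases 28 (0.123%), and 92 changed at least 2-fold. A gene name was available for 50 of them, of which 35 rose and 15 fell. The named increases ran from 0.73 to 4.38 and the named decreases from -3.02 to -0.91. The median over all probe sets stood at -0.13, and at -0.016 after quantile normalization, so the arrays with kinetin were slightly dimmer at the median. It was -0.31 with the replicate 1 arrays alone and 0.007 with the replicate 2 arrays alone, so the shift was not uniform. Every named gene that passed moved by more than that shift, but passing itself favours large changes, so this is no separate check.

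The arrays themselves differed in brightness and in RNA measures. Array medians spanned 6.70 to 7.87 with kinetin and 7.18 to 7.99 without, and the lowest of all 64 arrays was replicate 1 of kinetin with IAA and ABA. The log2 ratio of the 3' to the 5' GAPDH control probe sets, a measure of RNA integrity and labelling, averaged 7.72 ± 1.54 (SD, n = 8) with kinetin and 8.95 ± 0.96 (SD, n = 8) without. The difference of -1.23 had p = 0.100 in a two-sided exact permutation test within hormone combinations (adjusted p = 0.401 over 4 array measures). The same log2 ratio averaged 4.51 with kinetin and 4.39 without for actin, and 3.26 and 3.72 for ubiquitin. In both arms the 3' signal thus far exceeded the 5' signal in each of these controls. The part of these measures in the results was not tested beyond the fits with the array median, GAPDH or actin ratio as a covariate. Duplicate arrays of the 8 groups correlated at 0.819 to 0.887 across probe sets.

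Both type-A response regulators with a named probe set rose. ARR16 stood at 6.19, 8.94 and 11.49 (lowest, median and highest of 8 arrays) without kinetin and at 10.62, 12.90 and 13.88 with it. It rose by 3.77 ± 0.31 (adjusted p = 4.84e-10). The arms overlapped across combinations, because ARR16 stood at 11.49 and 11.11 on the arrays with ABA alone, but within each combination both arrays with kinetin lay above both without.

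ARR15 stood at 4.85, 6.60 and 8.47 without kinetin and at 6.10, 9.54 and 10.41 with it. It rose by 2.61 ± 0.60 (adjusted p = 0.0252). Its arms overlapped through 1 array, replicate 2 of kinetin with ABA, which at 6.10 lay among the untreated arrays. The call of ARR15 was lost in 9 of the 16 fits that left out 1 array, with an adjusted p of up to 0.160. It was also lost with the GAPDH ratio as a covariate (2.25, adjusted p = 0.112), with quantile normalization (2.54, adjusted p = 0.0648) and in a fit of the 16 arrays alone (adjusted p = 0.112). A contrast that left out the combination of IAA and ABA, whose 4 arrays stayed in the fit, lost it too (2.52, adjusted p = 0.194). The change of ARR15 stayed between 2.13 and 3.09 in the 16 fits that left out 1 array.

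Other parts of the cytokinin pathway gave no call. The type-B regulators RR18 and RR19 stood at 0.05 ± 0.78 (adjusted p = 0.993) and -0.49 ± 0.47 (adjusted p = 0.870). The glucosyltransferases UGT76C1 and UGT76C2, which inactivate cytokinins by adding glucose to a ring nitrogen, stood at -0.33 ± 0.49 (adjusted p = 0.904) and 0.44 ± 0.40 (adjusted p = 0.864). With these standard errors, a change of 1 log2 unit in any of these genes would not have passed. The lists of receptors and phosphotransfer proteins and of cytokinin response factors had 0 named probe sets, so they were not analysed here by name.

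**Figure D1:**
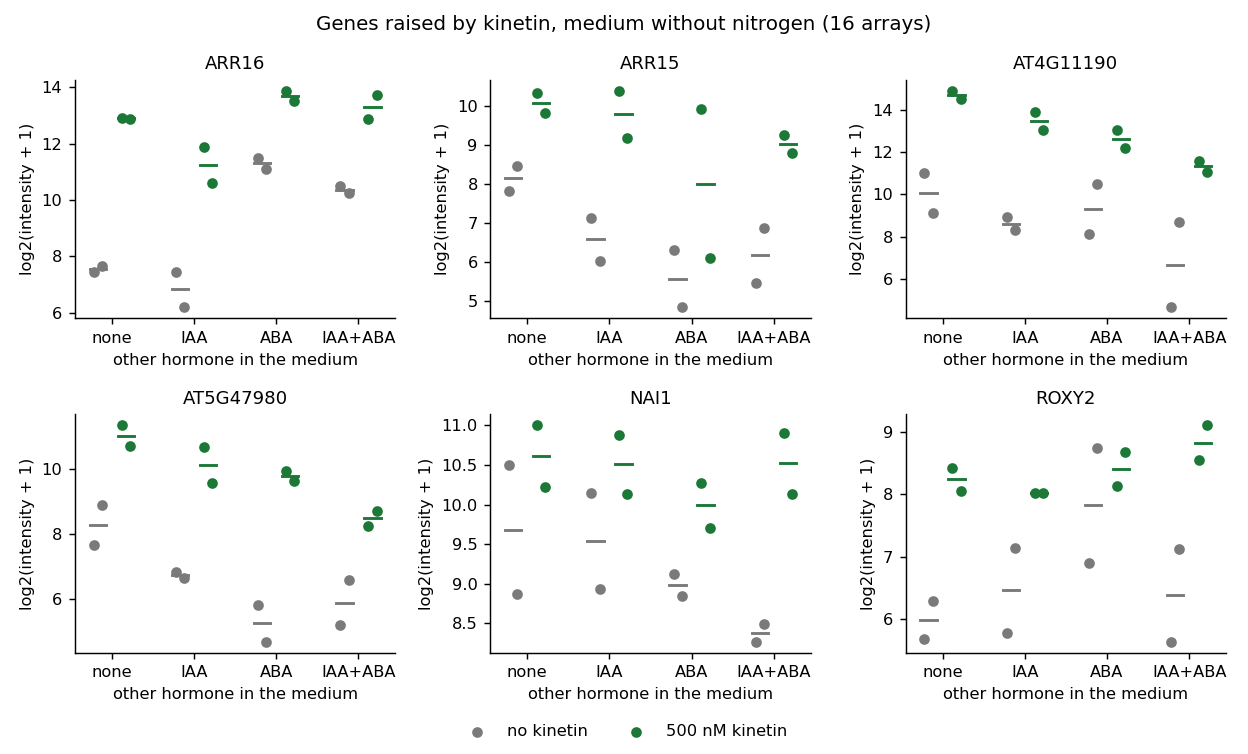
Level of 6 raised genes as log2(intensity + 1) on each of the 16 arrays without nitrogen, by the other hormone in the medium, grey without and green with 500 nM kinetin, with a bar at the mean of 2 arrays. The green points lie above the grey ones in every combination for ARR16, AT4G11190 and AT5G47980, and the low green point of ARR15 is the array at 6.10.

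The largest increase among named genes was that of AT4G11190, which encodes a dirigent-like protein, a family that guides the coupling of phenolic radicals in lignan and lignin synthesis. AT4G11190 stood at 4.64, 8.81 and 11.01 without kinetin and at 11.09, 13.06 and 14.94 with it. The lowest array with kinetin was above the highest without, and the change was 4.38 ± 0.55 (adjusted p = 6.60e-06). Such a full separation upward was found for 15 of all probe sets tested (0.0659%), and for 13 of the 74 that rose.

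Of the 15 named dirigent-like genes, 3 rose and none fell. The second was AT4G11210, the next protein-coding gene to AT4G11190 in the TAIR10.1 annotation, which rose by 2.91 ± 0.56 (adjusted p = 0.00445), and the third was AT1G58170, which rose by 1.31 ± 0.24 (adjusted p = 0.00206). The median change of the 15 genes was -0.26, beside -0.13 over all probe sets, so the 3 increases were not shared by the family.

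Genes of specialised metabolism were also among those that rose. AT5G47980 belongs to the root cluster that makes thalianol triterpenes, where it encodes an acyltransferase. It stood at 4.69, 6.63 and 8.91 without kinetin and at 8.24, 9.79 and 11.36 with it, and rose by 3.31 ± 0.33 (adjusted p = 4.23e-08). Its arms overlapped through 1 array with no hormone at all, at 8.91, and the 2 arrays with all 3 hormones, and within each combination both arrays with kinetin were higher. AT5G47950, the other named cluster gene, stood at 0.97 ± 0.44 (adjusted p = 0.652).

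AT5G38020, a methyltransferase of the SABATH family that methylates small acids such as salicylic or jasmonic acid, ranged from 7.88 to 8.90 without kinetin and from 9.49 to 11.08 with it. The arms did not overlap, and it rose by 1.79 ± 0.26 (adjusted p = 9.02e-05). It was the only one of 16 named SABATH genes to pass. AT2G25150, which encodes an acyltransferase that joins coumaroyl groups to spermidine, rose by 2.55 ± 0.51 (adjusted p = 0.00578), from a mean of 4.73 that lay below the lowest array median.

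ER bodies are compartments of the root endoplasmic reticulum that store beta-glucosidases for defence. Of 7 named genes for ER body proteins and their lectin partners, 2 rose and none fell. NAI1, the basic helix-loop-helix factor needed to form ER bodies, stood at 8.27, 8.90 and 10.50 without kinetin and at 9.70, 10.25 and 11.00 with it. It rose by 1.26 ± 0.25 (adjusted p = 0.00573). Its arms overlapped through replicate 1 without other hormone and replicate 1 with IAA, both high without kinetin.

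The jacalin-related lectin JAL33 rose by 1.04 ± 0.24 (adjusted p = 0.0308), close to the threshold, and its call was lost in 9 of 16 fits without 1 array (adjusted p of up to 0.156). It was also lost with the GAPDH ratio as a covariate (adjusted p = 0.0509) and with quantile normalization (adjusted p = 0.0651). The contrast without the combination of IAA and ABA (adjusted p = 0.118) and the fit of the 16 arrays alone (adjusted p = 0.304) lost it as well. The beta-glucosidase PYK10, the main ER body protein, stood at 1.24 ± 0.47 (adjusted p = 0.481), and JAL34 at 0.69 ± 0.17 (adjusted p = 0.0572). The median of the 7 genes was 0.69, with 6 above 0, beside a median of -0.13 over all probe sets, with 38.0% above 0.

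ROXY2, a CC-type glutaredoxin of a plant-specific class that binds TGA transcription factors, stood at 5.63, 6.59 and 8.75 without kinetin and at 8.02, 8.28 and 9.11 with it. It rose by 1.71 ± 0.29 (adjusted p = 7.53e-04). A single array without kinetin, replicate 2 of ABA at 8.75, reached into the kinetin arm. None of the other 16 named CC-type glutaredoxins passed, and the median of all 17 was 0.38. The nitrate-responsive members AT4G15680, AT4G15690 and AT4G15700 stood at 0.64 ± 0.50, 0.33 ± 0.72 and 0.40 ± 0.75.

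Several of the largest increases belonged to genes named by locus. AT4G35725 rose by 4.28 ± 0.55 (adjusted p = 7.38e-06), from 3.16, 4.91 and 6.68 without kinetin to 6.47, 9.40 and 11.60 with it. AT2G16005, which encodes a lipid-binding protein of the MD-2-related class, rose by 3.08 ± 0.31 (adjusted p = 5.16e-08), from 7.17, 8.30 and 9.55 to 8.94, 11.73 and 13.14. AT2G16005 was highest on the 4 kinetin arrays that also had ABA. In both genes the highest untreated array, one with ABA, lay above the lowest array with kinetin.

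AT1G34330, which RefSeq lists as a transcribed pseudogene, rose by 3.36 ± 0.53 (adjusted p = 2.75e-04). Its arms did not overlap, with 2.97 to 5.48 without kinetin and 6.04 to 7.66 with it. All of its untreated arrays were dimmer than the lowest array median. AT1G66800 rose by 2.97 ± 0.54, AT4G35200 by 2.10 ± 0.40, AT5G26620 by 2.04 ± 0.42, AT4G37220 by 2.03 ± 0.37 and AT5G26260 by 1.98 ± 0.32, with adjusted p-values between 3.31e-04 and 0.00945. The call of AT5G26620 was lost without replicate 2 of IAA (1.86, adjusted p = 0.0519). AT4G37220, of the WCOR413 family of cold-acclimation membrane proteins, was also high on the arrays with ABA and no kinetin, and its arms overlapped widely.

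Decreases were fewer than increases. OCT1, a plasma membrane transporter for organic cations such as carnitine, showed the largest named fall, from 3.85, 10.05 and 11.14 without kinetin to 2.24, 6.14 and 9.58 with it. It fell by 3.02 on the log2 scale (SE 0.65, adjusted p = 0.0145). OCT1 was low on the 4 arrays with no other hormone, at 3.30 to 5.16, and high on the untreated arrays with IAA or ABA, so the arms overlapped. Its call was lost in 6 of 16 fits without 1 array and with the GAPDH ratio as a covariate (-2.63, adjusted p = 0.0680). It was also lost in the contrast without the combination of IAA and ABA (-2.53, adjusted p = 0.332) and in the fit of the 16 arrays alone (adjusted p = 0.135).

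NRT2.5, a high-affinity nitrate transporter known from nitrogen-starved plants, stood at 8.07, 9.94 and 10.84 without kinetin and at 6.32, 8.22 and 9.71 with it. It fell by 1.51 on the log2 scale (SE 0.31, adjusted p = 0.00732). Within each combination both arrays with kinetin lay below both without, and the overlap across combinations came from the arrays with ABA, which were low without kinetin as well. NRT2.5 passed in all 16 fits without 1 array. Its call was lost in the contrast without the combination of IAA and ABA (-1.37, adjusted p = 0.130) and in the fit of the 16 arrays alone (adjusted p = 0.0652).

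NRT2.5 was the only one of 5 named genes for nitrate uptake and assimilation to pass. The nitrate-responsive regulators AT1G25550, AT3G25790 and AT1G68670 stood at 0.39 ± 0.27, 0.27 ± 0.34 and 0.07 ± 0.38, and AT1G64190, which encodes a 6-phosphogluconate dehydrogenase, stood at -0.48 ± 0.20 (adjusted p = 0.584). The genes for ammonium uptake and assimilation had 0 named probe sets.

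Of 55 named class III peroxidases, secreted haem enzymes that use hydrogen peroxide in the cell wall, 2 fell and none rose. AT3G01190 ranged from 9.41 to 11.83 without kinetin and from 8.15 to 10.35 with it, and fell by 1.53 on the log2 scale (SE 0.29, adjusted p = 0.00415). AT4G30170 stood at 9.17, 10.11 and 10.99 without kinetin and at 3.81, 8.66 and 10.40 with it, and fell by 1.79 on the log2 scale (SE 0.33, adjusted p = 0.00213). Replicate 2 of kinetin with IAA and ABA, at 3.81, lay far below the other 7 arrays of its arm. Without that array the fall of AT4G30170 was 1.33 on the log2 scale and passed. In the contrast without the combination of IAA and ABA, AT4G30170 stood at -1.18 (adjusted p = 0.474), with the array at 3.81 still in the variance. The call was also lost in the fit of the 16 arrays alone (adjusted p = 0.277). The median of the 55 genes was -0.18, close to that of all probe sets.

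AT1G55430 was the only named gene that fell with no overlap of the arms, from 5.19, 6.55 and 7.84 without kinetin to 2.29, 3.90 and 4.72 with it (-2.63 ± 0.47, adjusted p = 0.00195). A full separation downward was found for 3 of all probe sets tested (0.0132%) and for 1 of the 28 that fell. AT1G55430, AT3G13760 (-2.03 ± 0.39, adjusted p = 0.00348), AT3G11370 (-1.94 ± 0.41, adjusted p = 0.0100) and AT3G45840 (-1.57 ± 0.35, adjusted p = 0.0173) all encode proteins with cysteine- and histidine-rich C1 domains. This shared domain was seen after the values were known, and the whole family was not counted. AT3G11370 reached its lowest levels, 3.58 and 2.17, on the 2 arrays with all 3 hormones.

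PRP39-2, related to a yeast splicing factor, fell by 2.58 on the log2 scale (SE 0.59, adjusted p = 0.0262). Its levels were low throughout, at 5.81, 6.69 and 7.75 without kinetin and 2.19, 3.80 and 6.95 with it, and with a pseudocount of 64 its change was -0.92 (adjusted p = 0.0788). AT3G58060, a metal transporter of the cation diffusion facilitator class, fell by 2.09 on the log2 scale (SE 0.48, adjusted p = 0.0252). AT3G22540 fell by 1.86, AT5G64550 by 1.30, AT5G22555 by 1.27, AT1G11540 by 1.19 and AT4G32950 by 0.91 on the log2 scale, with adjusted p-values from 7.86e-04 to 0.0278. Single arrays ended the call in 9 of 16 fits for AT3G58060, 8 for PRP39-2, 12 for AT1G11540, 7 for AT5G22555, 6 for AT3G45840 and 4 for AT4G32950. AT5G64550 lost its call without replicate 2 of kinetin with IAA (-1.16, adjusted p = 0.0504).

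In a contrast that left out the combination of IAA and ABA, 51 probe sets passed, 47 of them up and 4 down. The check was added after seeing the data, and the 4 arrays stayed in the fit, so they still entered its variance. Of the 50 named genes that passed, 20 of the 35 that rose and 3 of the 15 that fell passed again. AT3G11370 then stood at -1.03 (adjusted p = 1.00), AT3G45840 at -1.01 (adjusted p = 0.974) and NAI1 at 0.97 (adjusted p = 0.332). With the GAPDH ratio as a covariate, 31 of the 35 and 9 of the 15 passed. In a fit of the 16 arrays alone, which has fewer residual degrees of freedom, 12 of the 35 and 2 of the 15 passed, and the 2 that fell were AT1G55430 and AT3G11370. Leaving out replicate 2 of kinetin with IAA and ABA alone raised the count from 102 to 160, with 94 shared.

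**Figure D2:**
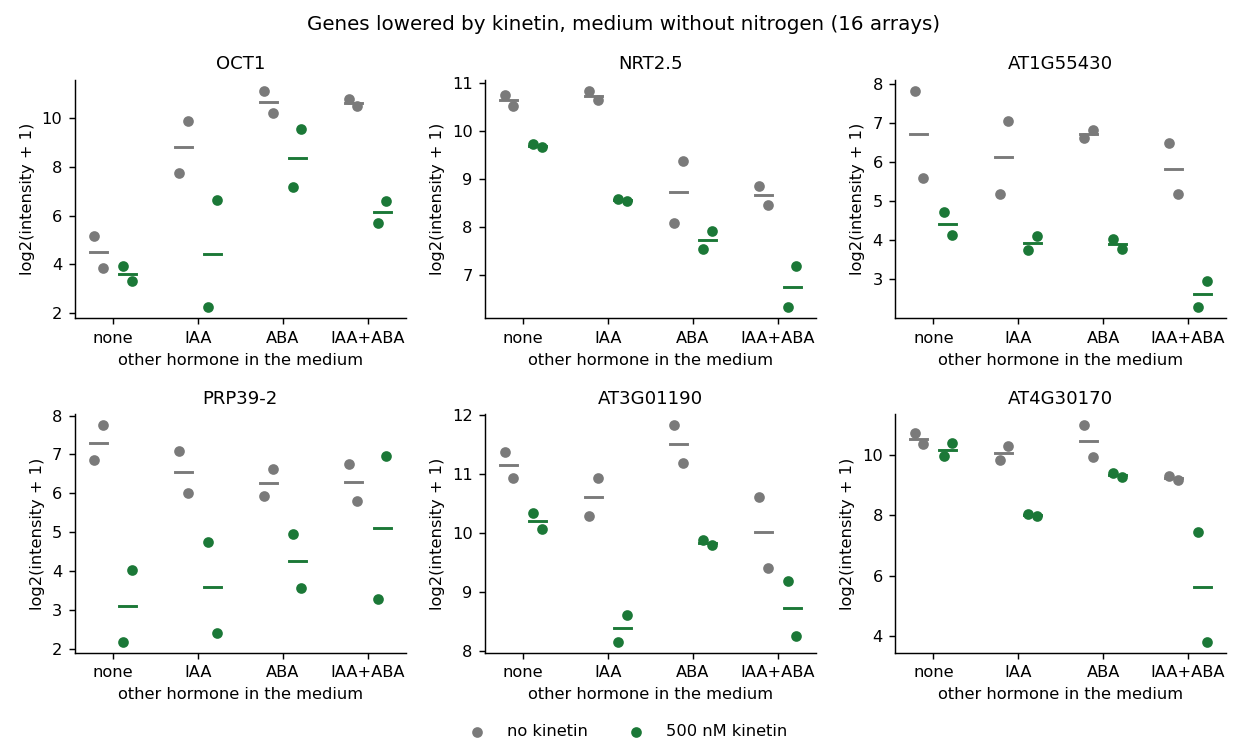
Level of 6 lowered genes as log2(intensity + 1) on each of the 16 arrays without nitrogen, by the other hormone in the medium, grey without and green with 500 nM kinetin, with a bar at the mean of 2 arrays. For NRT2.5 and AT1G55430 the green points lie below the grey ones in every combination, and for AT4G30170 the array at 3.81 stands apart.

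Gene lists for other signals and tissues held no call. None of 8 named auxin response genes, 4 ABA response genes, 2 iron acquisition genes or 2 root hair genes passed, and their medians were -0.05, -0.18, 0.20 and 0.14. None passed among 24 cytochromes P450, 19 expansins, 43 UDP-glycosyltransferases, 12 glutathione transferases, 10 xyloglucan endotransglucosylases and 17 genes of a transport list, families taken by the wording of their gene names. Most of the 17 were SWEET sugar carriers, so the list says little about other sugar or amino acid transporters. The expansins stood at a median of 0.17 with 13 above 0, and the xyloglucan enzymes at 0.43 with 8 above 0. Of all probe sets 38.0% were above 0.

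Markers for the tissue itself were few. The root hair expansins EXPA7 and EXPA18 stood at means of 9.24 and 9.35 without kinetin and 9.54 and 9.32 with it, above every array median of the 16 arrays. The photosynthetic genes LHCB4.1, LHCB4.2 and RCA stood at means of 7.19, 5.22 and 8.31 without kinetin and 6.89, 5.34 and 8.15 with it. Beside mean array medians of 7.49 and 7.32, LHCB4.1 and LHCB4.2 were lower and RCA was higher, and none of the 3 passed the test. The cell division list had 0 named probe sets.

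The 4 hormone combinations were then taken separately, each with 2 arrays against 2. Kinetin with no other hormone changed 4 probe sets (0.0176%), all upward, and the named one was ARR16. ARR16 stood at 7.45 and 7.65 on the mock arrays and at 12.91 and 12.89 with kinetin, a rise of 5.35 ± 0.61 (adjusted p = 5.18e-06). In the presence of IAA 10 probe sets passed (0.044%), 9 up (0.0396%) and 1 down (0.0044%). The named ones were ARR16 (4.42 ± 0.61, adjusted p = 4.27e-04), AT5G47980 (3.38 ± 0.67) and AT3G15440 (3.35 ± 0.65), the last pair with an adjusted p of 0.0267 each.

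AT3G15440 rested on low untreated arrays, at 2.53 and 4.20 with IAA alone against 5.83 and 7.61 with IAA and kinetin, and over the 4 combinations it stood at 0.93 ± 0.33 (adjusted p = 0.397). In the presence of ABA 2 probe sets passed (0.00879%). The named one was AT5G47980, at 5.84 and 4.69 without kinetin and 9.95 and 9.64 with it (4.53 ± 0.67, adjusted p = 0.00140). It was the highest kinetin change of AT5G47980 in any of the 4 combinations.

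With IAA and ABA together 22 probe sets passed (0.0967%), with 14 up (0.0615%) and 8 down (0.0352%). The median change over all probe sets was -0.39 here, beside -0.07 with no other hormone, -0.22 with IAA and 0.11 with ABA. Replicate 1 of kinetin with IAA and ABA had the lowest array median (6.70) and GAPDH ratio (4.82) of the arrays without nitrogen. The part of these array differences in the changes below was not tested. The largest named increases were those of AT4G35725 (5.76 ± 1.09, adjusted p = 0.0125), AT2G16005 (4.14 ± 0.63, adjusted p = 0.00136) and AT1G75880 (3.75 ± 0.64, adjusted p = 0.00462). AT1G75880 stood at 4.09 and 3.86 without kinetin and 8.31 and 7.14 with it, while its change in the other 3 combinations lay between -1.03 and 0.44. The largest named decreases were those of AT3G11370 (-4.67 ± 0.81, adjusted p = 0.00462), AT1G53025 (-3.75 ± 0.78, adjusted p = 0.0350) and AT4G30170 (-3.61 ± 0.65, adjusted p = 0.00682). AT1G53025 stood at 7.88 and 7.28 without kinetin and 3.38 and 4.28 with it, and its change in the other 3 combinations lay between -0.27 and 0.87.

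**Figure D3:**
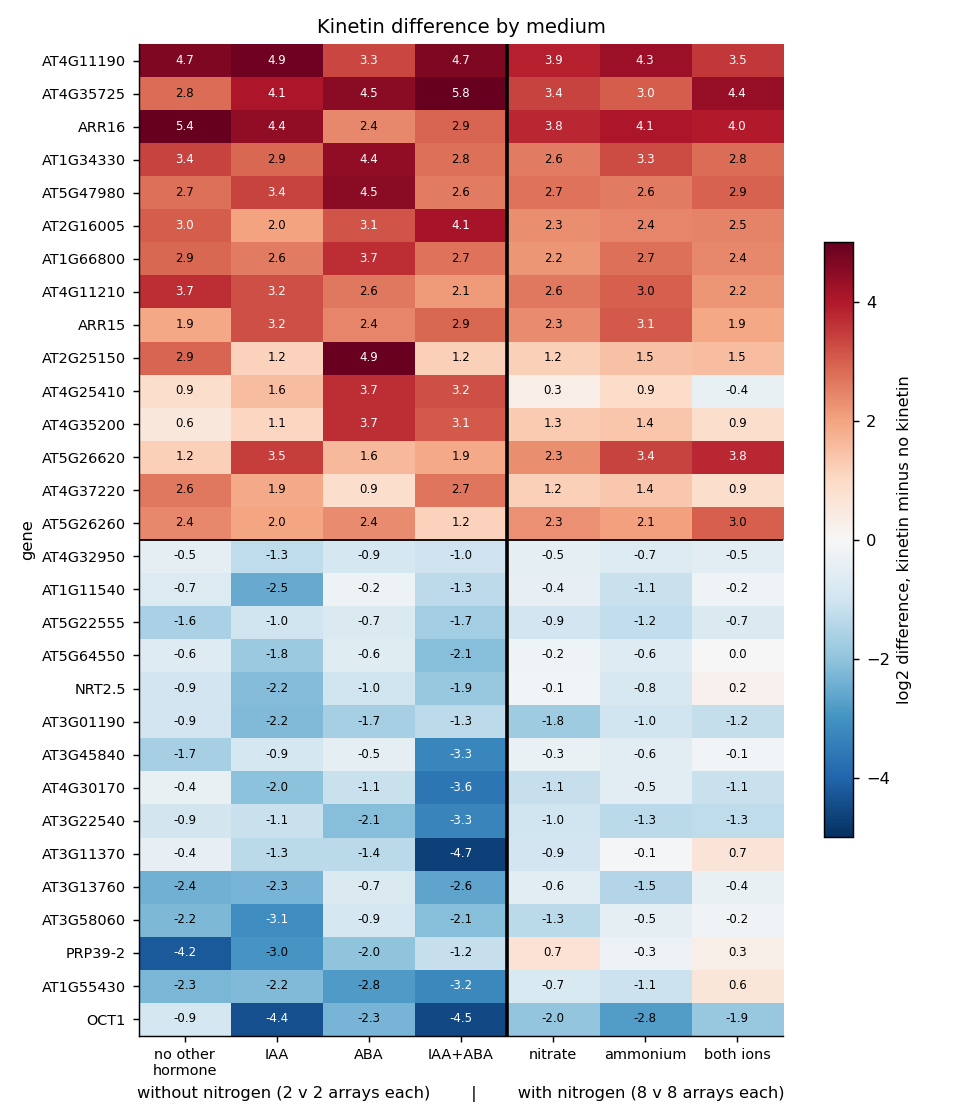
Log2 difference between kinetin and no kinetin for the 15 largest named increases and the 15 named decreases (rows), in the 4 hormone combinations without nitrogen (left of the thick line, 2 against 2 arrays each) and on 3 nitrogen media (right, 8 against 8 arrays each). The raised genes are red across nearly the whole row, AT4G25410 being pale on nitrate and blue with both ions, while on the right PRP39-2 is blue on ammonium alone, and AT1G55430 and AT3G11370 are blue on nitrate and red with both ions.

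Whether IAA or ABA altered the kinetin response was tested directly. No probe set passed for IAA in limma, with a smallest adjusted p of 0.402 and 1363 probe sets at an unadjusted p under 0.05, and none for ABA, with a smallest adjusted p near 1 and 423 at an unadjusted p under 0.05. Both counts stayed at 0 in each other setting with all arrays, and rose to 1 for IAA in 2 fits without 1 array. Leaving out 1 array moved the 4 counts to between 2 (without mock replicate 2) and 9 (without mock replicate 1) for kinetin alone, 2 (without replicate 1 of IAA) and 10 with IAA, 0 (without replicate 2 of ABA) and 9 (without replicate 1 of kinetin with ABA) with ABA, and 5 (without replicate 1 of IAA with ABA) and 22 with both. So the counts of 4, 10, 2 and 22 do not show that the response differed between combinations.

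The values of single genes are given here as description. The kinetin change of ARR16 was 2.23 smaller on the log2 scale with ABA than without (SE 0.61, unadjusted p = 8.91e-04). The arrays with ABA and no kinetin stood at 10.24 to 11.49, and those with neither at 6.19 to 7.65. AT4G25410, a basic helix-loop-helix gene, rose by 3.70 with ABA and by 3.23 with IAA and ABA, against 0.87 and 1.56 without ABA (unadjusted p = 0.00791). AT1G15600, named after its values were seen, changed by 0.039 with no other hormone and rose by 3.14 with IAA and ABA (unadjusted p = 3.81e-04 for the difference by IAA).

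All 74 raised and all 28 lowered probe sets had the same sign in the 4 combinations, which their selection on the mean over those combinations favours. Of all tested, 3665 had 1 sign in all 4. The median change of the raised set was 1.75, 1.81, 1.49 and 1.83 with no other hormone, IAA, ABA and both. That of the lowered set was -0.86, -1.93, -1.01 and -1.78. Over all probe sets the medians were -0.07, -0.22, 0.11 and -0.39, so the 2 lowest medians of the lowered set fell where all probe sets were lowest.

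The same contrast on media with nitrogen used 48 other arrays, 24 with kinetin and 24 without, so the differences share no array with those without nitrogen. Both came from 1 fit with a shared variance per probe set, so the calls are not independent. There 355 probe sets passed (1.56%), 260 up (1.14%) and 95 down (0.418%), from 3 times as many arrays. All 74 probe sets raised without nitrogen were also above 0 with nitrogen, and 68 passed there, or 91.9% of them and 26.2% of the 260. Their median change with nitrogen was 1.39. Over all probe sets 51.5% were above 0 with nitrogen.

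Of the 28 lowered probe sets, 26 were also below 0 with nitrogen and 13 passed there, or 46.4% of them and 13.7% of the 95, with a median of -0.66. All 15 named decreases were smaller in size with nitrogen than without, and so were 24 of the 35 named increases. Members were chosen for a large change without nitrogen, which by itself favours a smaller value in any other arrays.

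**Figure D4:**
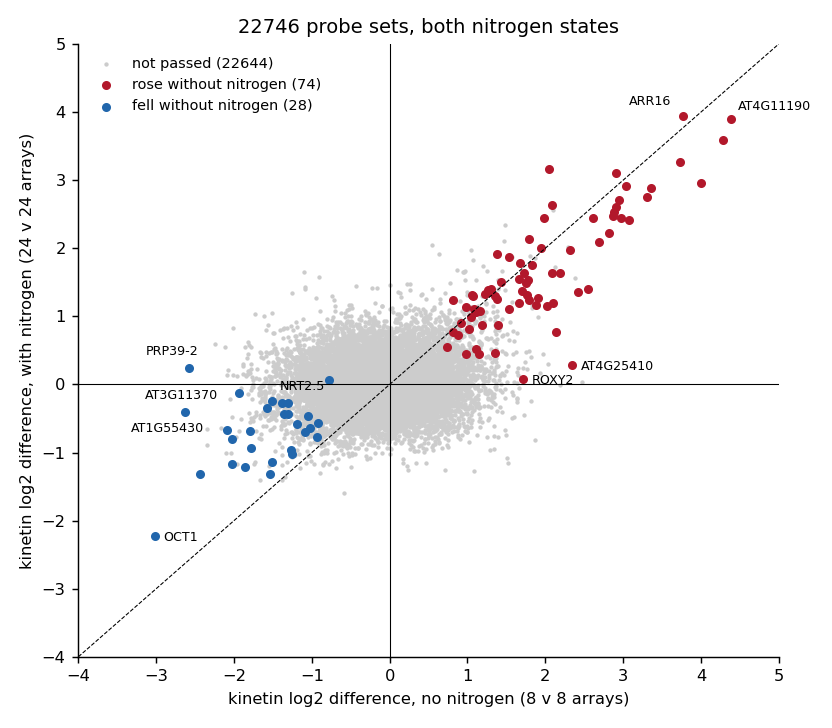
Kinetin log2 difference of each of 22746 probe sets without nitrogen (x axis, 8 against 8 arrays) and with nitrogen (y axis, 24 against 24 arrays), with the 74 raised probe sets in red, the 28 lowered in blue and the rest in grey; the dashed line marks equal differences. Red points scatter about the line and all lie above 0 on the y axis, with AT4G25410 and ROXY2 near 0, and most blue points lie between the line and 0.

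ARR16 rose on all 4 media, and ARR15 passed without nitrogen, on ammonium and over the 48 arrays with nitrogen together (2.45 ± 0.34, adjusted p = 7.99e-06). ARR16 rose by 3.78 ± 0.31 on nitrate, 4.06 ± 0.31 on ammonium and 3.98 ± 0.31 on both ions, beside 3.77 ± 0.31 without nitrogen. ARR15 changed by 2.35, 3.07 and 1.92 (SE 0.60 each) on the same media, beside 2.61, with adjusted p-values of 0.0815, 0.00531 and 0.162. The difference without minus with nitrogen was -0.17 ± 0.35 for ARR16 and 0.16 ± 0.69 for ARR15, so for ARR15 differences of 1 log2 unit remain within the error.

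No probe set passed the test of the difference between the kinetin response without and with nitrogen in limma. The smallest adjusted p was 0.370, 1275 probe sets had an unadjusted p under 0.05, and the count was 0 in each other setting with all arrays and at most 1 without a single array. The genes below had the smallest p-values among the named genes that passed without nitrogen. They are given as values, and none is shown to respond only without nitrogen.

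ROXY2 had a kinetin change of -0.35, 0.08 and 0.53 (SE 0.29 each) on nitrate, ammonium and both ions, beside 1.71 without nitrogen. Its level without kinetin was 6.66 ± 1.06 (SD, n = 8) without nitrogen and 8.06, 8.21 and 8.31 on the 3 nitrogen media, and with kinetin and no nitrogen it was 8.37 ± 0.39. The difference of responses was 1.63 ± 0.33 (unadjusted p = 2.15e-05, adjusted p = 0.370). AT4G25410 stood at 4.94 without nitrogen or kinetin and at 7.28 with kinetin, and its difference of responses was 2.05 ± 0.46 (unadjusted p = 8.13e-05, adjusted p = 0.370).

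NRT2.5 had its highest mean on medium without nitrogen or kinetin, 9.68 ± 1.13 (SD, n = 8), against 8.63 on nitrate, 8.99 on ammonium and 8.24 on both ions. With kinetin and no nitrogen it stood at 8.18 ± 1.18, beside 8.51, 8.20 and 8.45 with kinetin on the nitrogen media. Its kinetin change there was -0.13, -0.80 and 0.21 (SE 0.31 each), and the difference of responses was -1.27 ± 0.35 (unadjusted p = 9.89e-04, adjusted p = 0.833).

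PRP39-2 changed by 0.73, -0.29 and 0.30 (SE 0.59 each) on the nitrogen media, a difference of responses of -2.83 ± 0.69 (unadjusted p = 2.08e-04, adjusted p = 0.592). For AT1G55430 the difference was -2.22 ± 0.55 (unadjusted p = 2.58e-04, adjusted p = 0.597) and for AT3G11370 it was -1.81 ± 0.47 (unadjusted p = 4.60e-04, adjusted p = 0.624). In each of these 3 the kinetin arrays without nitrogen had the lowest mean of all 8 medium and kinetin pairings.

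**Figure D5:**
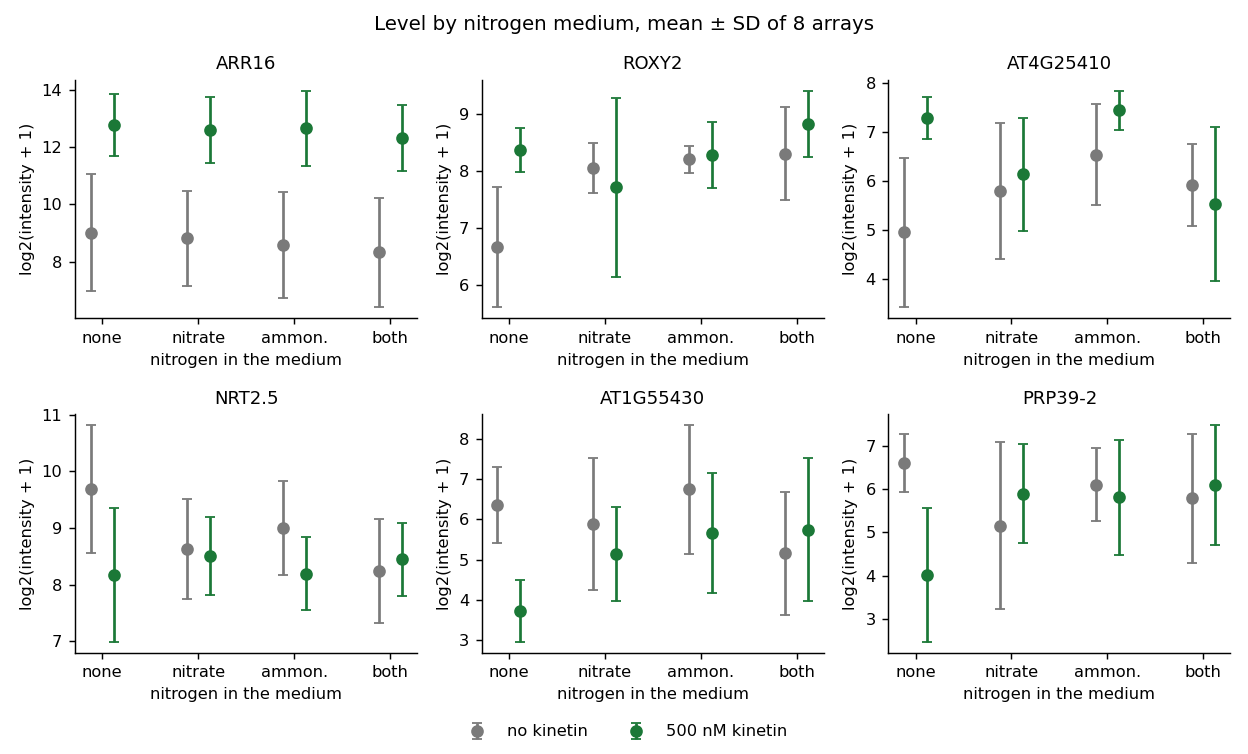
Mean level as log2(intensity + 1) of 6 genes on the 4 nitrogen media, grey without and green with 500 nM kinetin, with bars for the SD of 8 arrays that span the 4 hormone combinations. The ARR16 points are apart on every medium, while the pair for ROXY2, NRT2.5, AT1G55430 and PRP39-2 is widest on the medium without nitrogen.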

How the data were processed

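RNA from roots was hybridised to Affymetrix arrays, 1 array per sample. Per the labels, extraction was by Trizol, with biotin labelling after the Affymetrix recommendation. The authors deposited 1 intensity per probe set and array on a linear scale. Trimmed by 2% at either end, the mean intensity is 500 on all 64 arrays, so the authors had scaled each array; their software is not given in the sources used here. Protocol labels and the design text give different growth periods before treatment, 14 to 16 and 12 to 14 days.

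Intensities were transformed as log2(value + 1), and dim probe sets were kept. The size of changes of dim genes depends on the added constant, and several were smaller with a pseudocount of 64. In R 4.3.3, limma 3.58.1 fitted 1 mean per group to all 64 arrays (prior 3.83 and residual 32 degrees of freedom), and the kinetin effect was the mean difference over 4 hormone combinations. All 22746 probe sets other than 64 controls were tested, with Benjamini-Hochberg adjustment within each comparison. The number of arrays limits the precision. The fit was run on data simulated with independent normal noise, which does not cover outlying arrays or technical duplicates. Of the probe sets, 13513 have 1 gene in the platform annotation, 503 several and 8794 no entry, and 13436 of the first matched RefSeq (TAIR10.1), used for names and neighbours only.

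Genes named in the text are the 15 largest increases and the 15 decreases, the 3 largest in each direction in each other comparison, named members of the cytokinin lists and passing members of 26 gene lists, with members that did not pass given for context. Members and lists were chosen with earlier results of these data known. Roles of genes known by locus are general background and do not come from the files. The replicate 1 minus replicate 2 differences of a kinetin group and its control correlated at 0.05, -0.06, 0.20 and -0.13 in the 4 combinations. The numbers were therefore not treated as pairs. Alternatives changed the pseudocount, scaling, dim filter, covariates, weights, block, contrast and arrays used.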

Additional observations from a re-analysis of the deposited data

Results flagged for a closer look

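In 92 arms of 8 arrays, from 42 genes and 4 array measures, 5 held an array whose gap to its nearest neighbour exceeded Dixon's 95% critical share of the range of the arm. Chance flags about 1 in 20 such groups. ARR15 stood at 6.10 in replicate 2 of kinetin with ABA, and the other 7 arrays with kinetin at 8.80 to 10.41. AT4G11190 stood at 4.64 in replicate 1 of IAA with ABA, and the other 7 arrays without kinetin at 8.13 to 11.01. AT4G30170 stood at 3.81 in replicate 2 of kinetin with IAA and ABA, with the others at 7.45 to 10.40. UGT76C2 stood at 8.55 in replicate 2 of kinetin alone, with the others at 7.05 to 7.66, and UGT76C1 at 5.11 in replicate 1 of the mock, with the others at 7.20 to 8.39.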

How the results depend on the processing

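Of 102 probe sets called, 88 to 102 were called again with a pseudocount of 16 (113 in all) or 64 (141), quantile normalization (107), the array median (156, 106 up and 50 down) or actin ratio (113) as a covariate, array weights (125), the dimmest 40% left out (127) and a replicate block (141). With the GAPDH ratio 91 passed. Without 1 array 80 to 160 passed. A fit of the 16 arrays alone called 34 (31 shared), and replicate 1 or replicate 2 arrays alone called 0 and 0 in limma, with 2231 and 1088 at an unadjusted p under 0.05; these fits hold fewer arrays. In the contrast without the combination of IAA and ABA 51 passed. For kinetin alone the count was 15 with a pseudocount of 64, 8 with quantile normalization, 9 with the array median or array weights, 8 without dim probe sets, 1 in the 16-array fit and 2 to 9 without 1 array. In the presence of IAA it was 17, 26 with the array median, 17 without dim probe sets, 6 with actin, 30 with weights, 0 and 2 to 10. In the presence of ABA it was 6, 6 with quantile normalization, 5, 4 without dim probe sets, 6 with the replicate block, 0 and 0 to 9. With IAA and ABA it was 8 with weights, 1 in the 16-array fit and 5 to 22. Without 1 array the tests of a difference called 0 to 1 for IAA, 0 to 0 for ABA and 0 to 1 for nitrogen. The replicate block, on numbers that were not shown to pair arrays, changed no other call.

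Of the 50 named genes that passed, 30 kept their call in all 16 fits without 1 array and 20 lost it at least once, 12 of the 35 that rose and 8 of the 15 that fell. With a pseudocount of 64 changes of dim genes shrank by over 1.5 times, for example to 1.38 for AT1G34330, 1.08 for AT4G25410 and -0.97 for AT1G55430, and PRP39-2 no longer passed. With replicate 2 arrays alone ROXY2 stood at 1.14 and AT3G22540 at -1.15, and with replicate 1 arrays alone AT1G49500 stood at 0.96. In the contrast without the combination of IAA and ABA, AT3G11370, AT3G45840 and AT4G30170 stood at -1.03, -1.01 and -1.18. Signs turned only in genes that did not pass. These were RR18 (-0.44 with replicate 1 arrays, -0.43 to 0.52 without 1 array) and UGT76C1 (-0.74 to 0.082 without 1 array). The others were AT1G75880 (-0.019 with replicate 2 arrays, -0.16 without the combination of IAA and ABA) and AT1G53025 (0.12 without that combination). The causes were not tested. The deposited values carry no detection calls, so a dim level has no known distance from background.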

Other observations

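Without a gene name, 39 probe sets rose by 0.92 to 4.00 and 13 fell by 0.78 to 2.44 on the log2 scale. The largest were 262915_at (4.00 ± 0.42, adjusted p = 8.15e-08 in limma) and 259388_at (3.72 ± 0.57, adjusted p = 1.67e-04) upward, and 260926_at (-2.44 ± 0.55, adjusted p = 0.0243) and 266477_at (-2.03 ± 0.35, adjusted p = 8.74e-04) downward.

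The named genes that passed included 2 pairs of adjacent protein-coding genes in the TAIR10.1 annotation, a pattern looked for after the values were seen. AT4G11190 and AT4G11210 rose by 4.38 and 2.91. AT5G38020, the SABATH methyltransferase, and AT5G38030, a transporter of the MATE class, rose by 1.79 and 1.07.

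Nitrate was set against ammonium on the arrays with nitrogen, none of which enters the kinetin comparison without nitrogen. Of the 55 probe sets higher on nitrate, 2 rose and 1 fell with kinetin without nitrogen, and their median kinetin change was -0.057. Of the 34 lower on nitrate, 2 fell and none rose, with a median of -0.21. Over all 22746 probe sets 74 rose (0.325%) and 28 fell (0.123%), with a median of -0.13. Whether these small sets differ from that share was not tested. OCT1, lower on nitrate than on ammonium by 2.74 on the log2 scale (-2.74 ± 0.46, adjusted p = 7.45e-04), and AT1G49500, higher by 1.81 ± 0.28 (adjusted p = 1.45e-04), were the named genes in both sets. AT1G49500 rose with kinetin without nitrogen by 1.91 ± 0.39 (adjusted p = 0.00776), and by 3.20, 3.14, 0.89 and 0.42 with no other hormone, IAA, ABA and both. It was picked after its values were seen.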
